A study of Homo sapiens with 6 samples.

Results

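The genes described here are 55 protein-coding genes whose products make ribosomal RNA, modify it, or assemble it into ribosomal subunits in the nucleolus. They were chosen by name, as listed RNA polymerase I genes, snoRNP proteins and ribosome assembly factors. No rule on measured values was used, but earlier results of these data were known when they were chosen. All 55 matched 1 of the 28395 NCBI gene IDs in the count files, and all 55 were among the 13767 genes with enough reads to test. The cells were HCT116, an established human colorectal cancer line, grown for 24 h with either 50 nM TR-107 or 0.1% DMSO, the vehicle. TR-107 is an agonist of ClpP, a protease of the mitochondrial matrix, and the study asked how its activation changes the transcriptome of these cells. Each treatment had 3 libraries of polyadenylated RNA, described by the submitters as biological replicates, with nothing on whether they were separate cultures or days. The p-values below therefore measure the spread between these libraries, which may be technical in part.

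The total count per library was 17264039 to 23708135. Of 8 epithelial and intestinal markers, 6 could be tested in these cells, with KRT8 at 2611 to 2771 and EPCAM at 368 to 402 CPM (counts scaled by library size), while CEACAM5 had a count of 0 in all 6 libraries and VIL1 at most 1. Of 10 markers of blood, fibroblast, endothelial and liver cells, 2 were high enough to test, COL1A1 and CD68. The summed level of these 10 was 18.8 to 21.5 CPM in DMSO and 26.6 to 31.5 CPM in TR-107. CD68, a lysosomal protein of macrophages and other cells, rose from 5.57 to 11.8 CPM, while PTPRC, CD3E and DCN were at 0, where a count of 0 allows up to 0.124 to 0.175 CPM per library. Of the 6 tested epithelial markers 4 rose (KRT18, KRT19, CDH1, ELF3), which is 66.7%, against 29.2% of all tested genes. The 8 epithelial markers summed to 5176 to 5219 CPM in DMSO and 5696 to 5831 CPM in TR-107. Mitochondrially encoded genes took 3.56 to 3.92% of counts in DMSO and 4.62 to 4.99% in TR-107. The part of these shifts in the results was not tested.

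A ribosome begins in the nucleolus, where RNA polymerase I copies the rDNA repeats into 1 long precursor. Small nucleolar ribonucleoproteins (snoRNPs) guide its chemical modification, and the SSU processome folds and cuts the part that becomes the 40S subunit. A separate set of GTPases, helicases and scaffold proteins builds the 60S subunit. Most of these factors are made in proportion to growth, and many of their genes are known targets of MYC, which binds the E-box, CACGTG. The 55 genes were divided by step into 5 for transcription, 8 for snoRNPs, 3 nucleolar scaffold proteins, 21 for 40S assembly and 18 for 60S assembly.

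The start regions of several members share that hexamer, so a few are shown before the values. RefSeq promoter windows on GRCh38.p14, from 250 bases before to 50 after an annotated start, were found for 47 members, as 56 windows. No window was available here for DDX18, NOP58, RRP1B, NOLC1, BOP1, RRP12, RRS1 and DDX52. Each stretch below runs 5′ to 3′ on the strand of the gene, from 60 bases before the start through the first 20 bases of the transcript, with the E-box in capitals. For PES1 it is an annotated start inside the span of the gene. They were picked to show the hexamer beside the start in genes of 3 steps, and NCL is shown as a member without it.
UTP20 (chr12:101280045-101280124, + strand): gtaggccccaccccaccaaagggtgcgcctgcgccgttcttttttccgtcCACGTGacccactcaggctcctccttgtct
NAT10 (chr11:34105569-34105648, + strand): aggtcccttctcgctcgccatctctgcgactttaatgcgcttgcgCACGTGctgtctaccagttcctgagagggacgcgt
RRP9 (chr3:51941885-51941964, - strand): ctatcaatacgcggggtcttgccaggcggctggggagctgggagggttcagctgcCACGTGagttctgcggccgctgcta
WDR43 (chr2:28894607-28894686, + strand): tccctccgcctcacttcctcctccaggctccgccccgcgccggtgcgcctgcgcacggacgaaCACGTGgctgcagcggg
FBL (chr19:39846360-39846439, - strand): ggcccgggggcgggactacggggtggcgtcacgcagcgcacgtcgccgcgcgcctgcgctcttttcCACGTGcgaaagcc
PES1 (chr22:30591891-30591970, - strand): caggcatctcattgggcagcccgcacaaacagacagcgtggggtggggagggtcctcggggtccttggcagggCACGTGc
MRTO4 (chr1:19251745-19251824, + strand): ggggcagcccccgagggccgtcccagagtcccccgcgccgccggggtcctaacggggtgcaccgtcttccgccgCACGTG
NCL (chr2:231464465-231464544, - strand): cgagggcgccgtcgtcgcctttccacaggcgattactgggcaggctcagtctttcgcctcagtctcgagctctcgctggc

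Of the 47 members with a window, 22 (46.8%) held CACGTG in at least 1, against 12.5% of the 10794 tested genes with a window and 8.77% of all 27305 genes of the table. Counted by window, the shares were 41.1% of 56, 9.30% of 15689 and 7.26% of 35116. The hexamer reads the same on both strands. By step it was found in 11 of 19 genes for 40S assembly, 7 of 14 for 60S assembly, 3 of 6 for snoRNPs, 1 of 3 scaffold genes and 0 of 5 transcription genes. Counted window by window, the windows of the members held 25 E-boxes in all. A hexamer shared by overlapping windows of a gene would be counted again. Of these, 21 (84%) began between 35 bases before and 45 bases after the start, a range set after the positions were seen, against 28% of the 1614 E-boxes in windows of other tested genes. These counts describe letters in 300-base windows and do not show that a factor binds there.

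**Figure D1:**
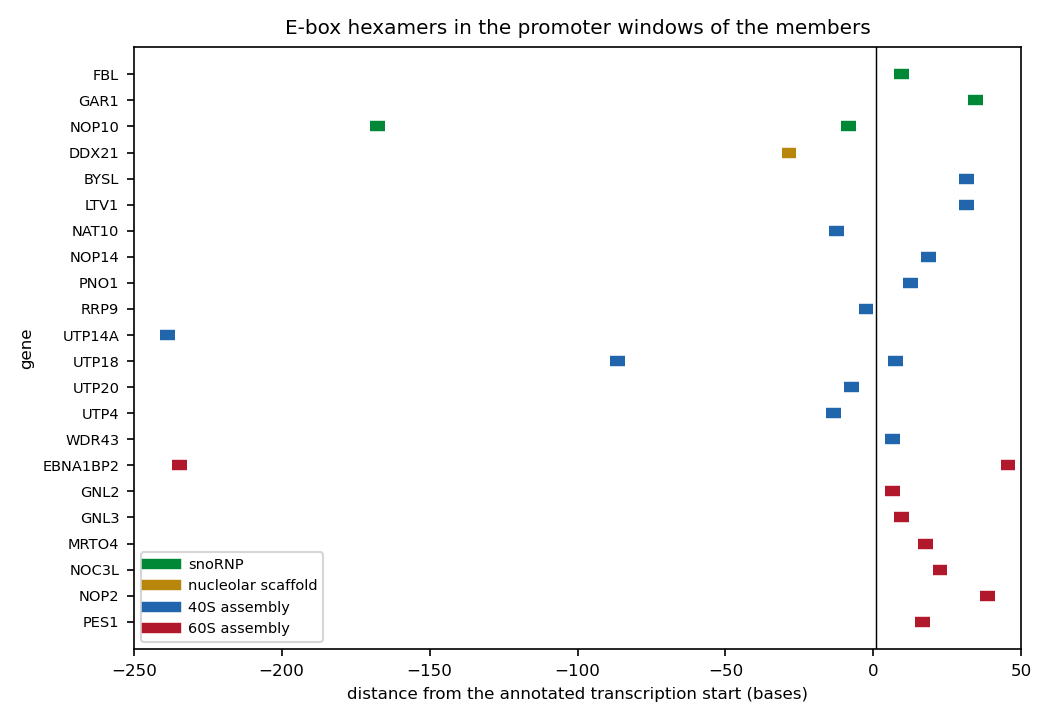
Positions of the E-box hexamer in the promoter windows of the 22 members that hold it. The x axis is the distance in bases from the annotated start (line at 1), each bar covers the 6 bases of a hexamer, and colours give the step. The bars crowd around the start, with 21 of 25, counted window by window, beginning within the range from -35 to 45.

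After 24 h in TR-107, nearly the whole set was lower. A gene was called where edgeR's quasi-likelihood test, adjusted by Benjamini-Hochberg over all tested genes, gave a value below 0.05. Of the 55 members, 50 fell, whereas 28.6% of all tested genes fell. The 1 that rose was RRP12, whereas 29.2% of all tested genes rose. The other 4, RRN3, UTP4, DDX52 and NOB1, did not pass the test. The changes were modest: the median log2 fold change, TR-107 over DMSO, was -0.39 (1.31-fold lower) over the members and 0.01 over all tested genes. Of the members, 14 fell by at least 0.58 on the log2 scale, about 1.5-fold, compared with 10.6% of all tested genes. In 49 of 55 the 3 TR-107 libraries lay below all 3 DMSO libraries, compared with 30.9% of all tested genes. Across the 55 genes, which share libraries and depth, Spearman's rho between the level in DMSO and the fold change was -0.01.

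**Figure D2:**
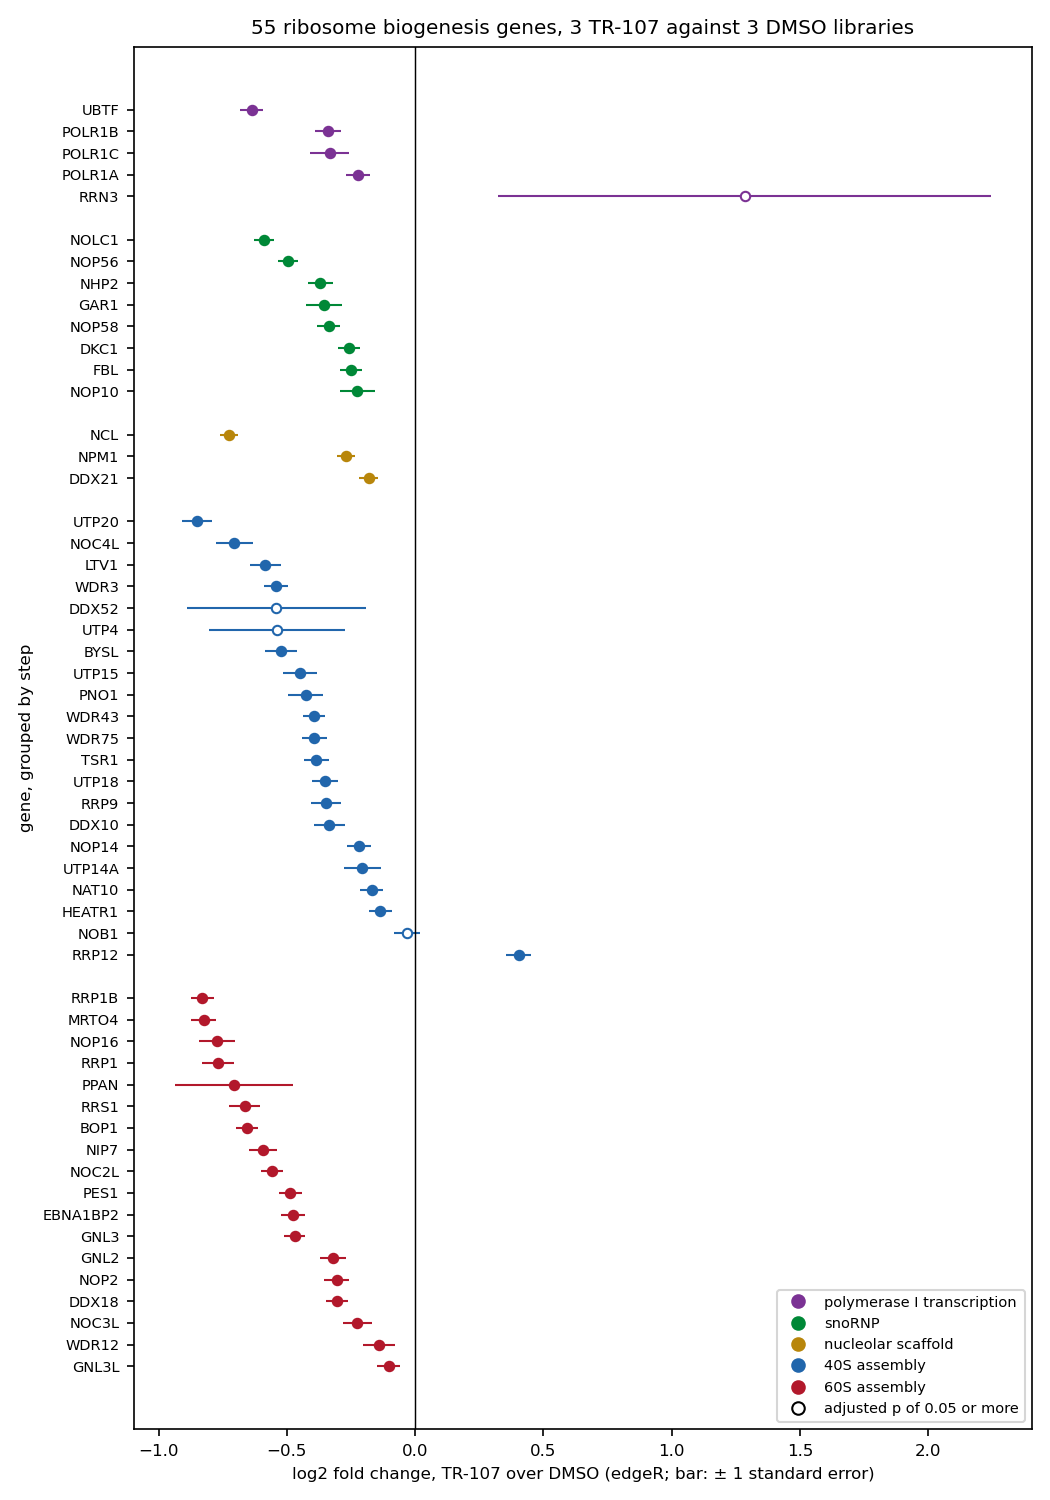
Log2 fold change, TR-107 over DMSO, of each of the 55 genes, grouped by step and ordered within it. Points are edgeR estimates, bars are 1 standard error on each side, and open points missed an adjusted p of 0.05. RRP12 is the 1 filled point right of 0, and RRN3, DDX52 and UTP4 have the 3 widest errors.

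The steps are given one by one, the 60S and 40S steps first. Beside them, 28.6% of all tested genes fell, 29.2% rose and 10.6% fell past 0.58 on the log2 scale. All 18 members of 60S assembly fell, 8 of them past 0.58, and the median log2 fold change was -0.52. Of the 21 members of 40S assembly 17 fell and 1 rose, with a median of -0.39 and 3 past 0.58. Of the 5 transcription genes 4 fell (median -0.33), and all 8 snoRNP genes (median -0.35) and all 3 scaffold genes (median -0.27) fell. These medians were set side by side as a description, and the difference between steps was not tested. Among the further genes described below, the median was -0.34 for 40S and -0.33 for 60S assembly. The lower 60S median of the members was thus not repeated there.

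Summed over its members, each step was lower in all 3 TR-107 libraries than in any DMSO library. The 60S genes summed to 3251 ± 24.0 CPM in DMSO and 2303 ± 42.0 CPM in TR-107 (SD, n = 3), which was 1.41-fold lower. The 40S genes went from 2538 ± 45.9 to 2048 ± 27.4 CPM (SD, n = 3), 1.24-fold lower. The snoRNP genes went from 2154 ± 35.1 to 1595 ± 1.72 CPM, the scaffold genes from 4732 ± 99.0 to 3487 ± 74.1 CPM, and the transcription genes from 586 ± 11.9 to 444 ± 11.8 CPM (SD, n = 3). NCL and NPM1 alone held 31.3% of the summed level of the 55 genes in DMSO and 30.1% in TR-107. Fewer cells making an RNA and less of it per cell cannot be told apart in such bulk libraries.

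The ribosomal proteins that these factors assemble went the other way. Of 77 tested cytosolic ribosomal protein genes 65 rose (84.4%, against 29.2% of all tested genes) and 4 fell (5.19%, against 28.6%). The median log2 fold change was 0.33. Their summed level went from 53824 ± 329 to 71112 ± 723 CPM (SD, n = 3), 1.32-fold higher, while that of the 55 assembly and transcription genes went from 13260 ± 130 to 9877 ± 104 CPM (SD, n = 3), 1.34-fold lower.

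**Figure D3:**
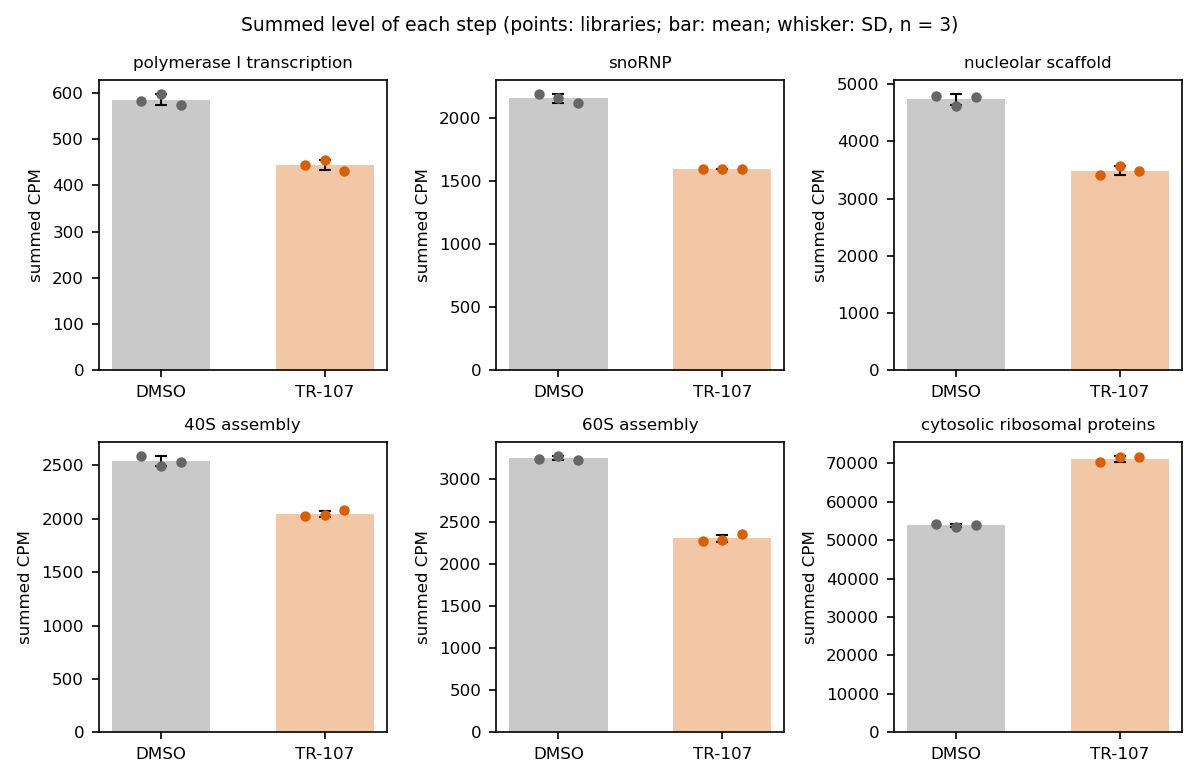
Summed CPM of the members of each step, and of the cytosolic ribosomal proteins, in DMSO (grey) and TR-107 (orange). Points are libraries, bars the mean and whiskers the SD of 3 libraries, and each y axis starts at 0. The 5 steps are lower in TR-107, and the ribosomal proteins are higher.

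Transcription of rDNA was represented by polymerase I subunits and 2 initiation factors. UBTF (gene ID 7343, GRCh38 chromosome 17, 44205040 to 44221304) encodes the HMG-box protein that keeps active rDNA open. It had 226, 229 and 217 CPM in DMSO and 145, 147 and 140 CPM in TR-107. Its TR-107 values lay well under its DMSO values, a log2 fold change of -0.64 (SE 0.05; adjusted p = 5.93e-16 by edgeR). Among the subunits, POLR1A, the largest, had 168, 179 and 177 CPM in DMSO and 148, 156 and 144 CPM in TR-107. POLR1B, the second largest, had 138, 137 and 129 CPM in DMSO and 107, 103 and 110 CPM in TR-107. POLR1C, which polymerase III shares, had 50.7, 52.4 and 49.7 CPM in DMSO and 43.4, 40.9 and 37.1 CPM in TR-107. No TR-107 library of these 3 genes reached its lowest DMSO library, and their log2 fold changes were -0.22, -0.34 and -0.33.

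RRN3, the initiation factor TIF-IA that brings polymerase I to the promoter, could not be read here. Its libraries held 23, 31 and 43 counts with DMSO, and 22, 154 and 22 with TR-107. TR-107 replicate 2 alone stood high, and the groups overlapped. Its log2 fold change was 1.28 (SE 0.96; adjusted p = 0.320 by edgeR), and -0.34 without that library (adjusted p = 0.600). Its pseudogenes RRN3P1 and RRN3P3, closely similar copies, had 39 to 66 and 64 to 89 counts, and how reads were shared among them was not tested.

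The 3 nucleolar scaffold proteins include the most abundant mRNAs of the set. NCL (gene ID 4691, GRCh38 chromosome 2, 231453531 to 231464484) encodes nucleolin, which binds nascent rRNA. It had 2099, 2042 and 2095 CPM in DMSO and 1224, 1288 and 1263 CPM in TR-107. The groups were far apart, a 1.65-fold lower level with a log2 fold change of -0.72 (SE 0.04; adjusted p = 2.07e-21 by edgeR). NPM1, nucleophosmin, which forms the outer nucleolar phase, had 2110, 2001 and 2101 CPM in DMSO and 1691, 1761 and 1695 CPM in TR-107. It fell less, 1.21-fold. DDX21, a helicase that links polymerase I transcription to processing, had 586, 575 and 587 CPM in DMSO and 501, 515 and 525 CPM in TR-107, with a log2 fold change of -0.18 ± 0.04 (SE).

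NCL and NPM1 had near-equal counts in DMSO. The NCL count was 0.995, 1.02 and 0.997 times that of NPM1 in DMSO and 0.724, 0.732 and 0.745 times in TR-107. The ratio, which no scaling factor touches, changed by -0.45 on the log2 scale. An exact two-sided permutation test gave p = 0.1, the smallest that 3 libraries against 3 allow (0.12 adjusted over the 6 pairs compared).

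All 8 snoRNP genes fell. NOLC1, which encodes Nopp140, a chaperone of both snoRNP classes, moved most, with 766, 779 and 761 CPM in DMSO and 514, 496 and 523 CPM in TR-107 (1.5-fold lower). Its log2 fold change was -0.59 (SE 0.04; adjusted p = 1.38e-17 by edgeR). In the box C/D particle, which methylates rRNA, the scaffold NOP56 had 439, 425 and 420 CPM in DMSO and 301, 304 and 305 CPM in TR-107. Its partner NOP58 had 212, 190 and 202 CPM in DMSO and 160, 162 and 156 CPM in TR-107. FBL, the methyltransferase fibrillarin, had 260, 254 and 249 CPM in DMSO and 220, 211 and 211 CPM in TR-107. The groups of the 3 genes did not overlap, and their log2 fold changes were -0.50, -0.34 and -0.25. NOP56 stood at 1.68, 1.68 and 1.68 times FBL in DMSO and at 1.37, 1.45 and 1.45 times in TR-107, a change of -0.24 on the log2 scale (exact two-sided permutation p = 0.1; 0.12 adjusted over the 6 pairs).

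The 4 core proteins of the box H/ACA particle, which makes pseudouridine and also belongs to telomerase, changed by similar amounts. NHP2 had 161, 163 and 151 CPM in DMSO and 123, 128 and 116 CPM in TR-107. GAR1 had 66.9, 59.3 and 64.8 CPM in DMSO and 48.1, 51.2 and 50.0 CPM in TR-107. Both lay lower in every TR-107 library, and their log2 fold changes were -0.37 and -0.36. DKC1, the pseudouridine synthase dyskerin, had 202, 204 and 202 CPM in DMSO and 169, 170 and 170 CPM in TR-107, with little spread in either group (log2 fold change -0.26). NOP10, the smallest of the 4, had 82.9, 78.0 and 69.1 CPM in DMSO and 60.8, 70.4 and 65.2 CPM in TR-107. TR-107 replicate 2 lay above DMSO replicate 3 there, and the log2 fold change was -0.22 (SE 0.07; adjusted p = 0.00406 by edgeR).

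**Figure D4:**
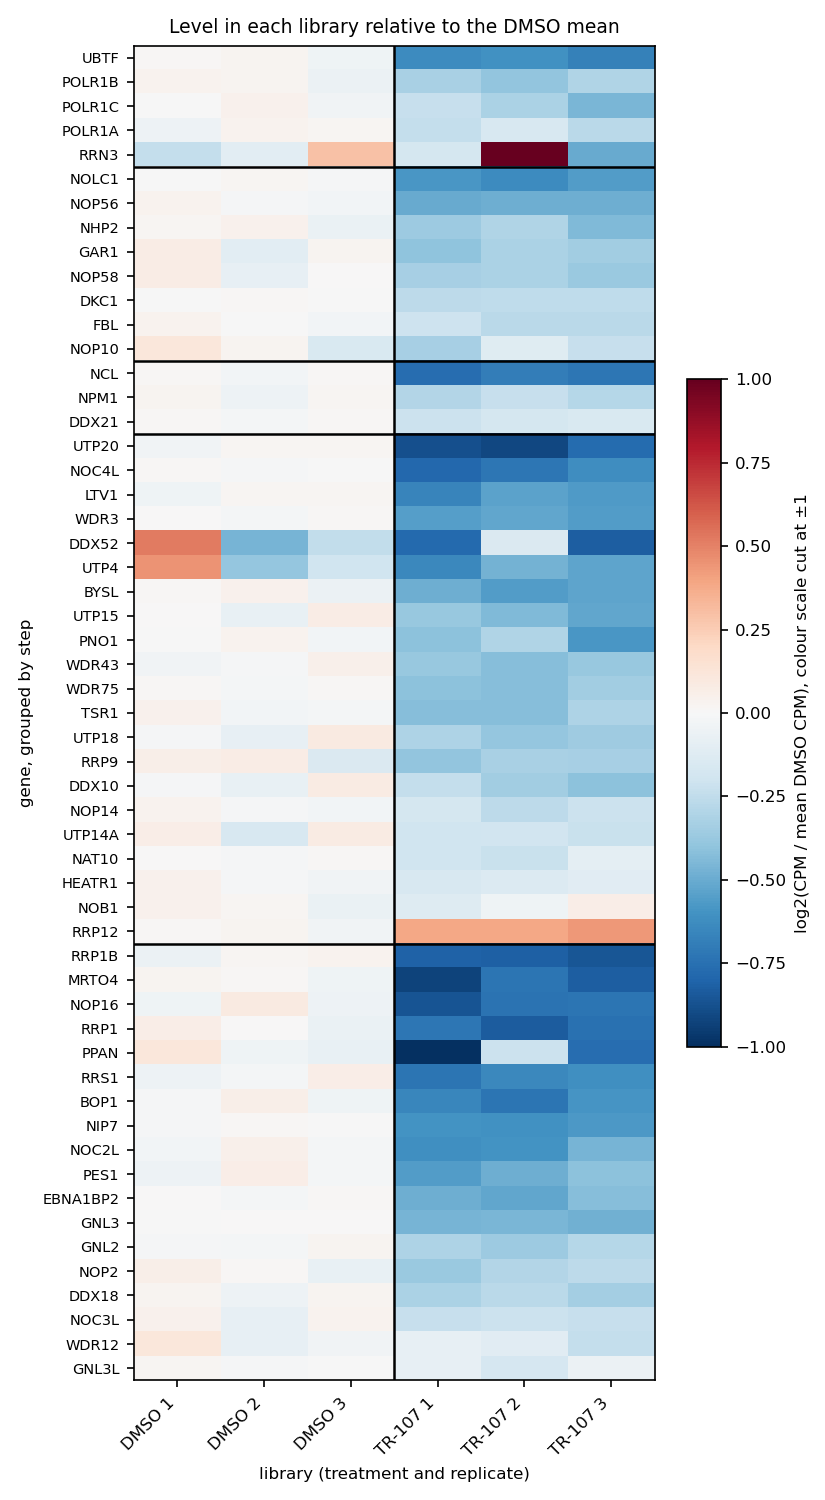
Level of each of the 55 genes in each of the 6 libraries, as log2 of its CPM over its mean CPM in DMSO, with rows grouped by step and colours cut at -1 and 1. Blue fills the TR-107 columns for most genes. RRP12 is red in the 3 TR-107 libraries, and UTP4 and DDX52 are both high in DMSO replicate 1. RRN3 is deep red in TR-107 replicate 2 and paler red in DMSO replicate 3.

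In 40S assembly the largest falls were in UTP20 and NOC4L. UTP20 (gene ID 27340, GRCh38 chromosome 12, 101280105 to 101386618) encodes a long scaffold of the SSU processome, the particle that forms on the 5′ part of the precursor. It had 108, 112 and 112 CPM in DMSO and 60.2, 58.9 and 65.1 CPM in TR-107. This was 1.80-fold lower, with a log2 fold change of -0.85 (SE 0.06; adjusted p = 1.75e-16 by edgeR), the largest fall among the 55. NOC4L, which works with NOP14 in the same particle, had 62.8, 61.8 and 61.9 CPM in DMSO and 36.1, 37.8 and 40.4 CPM in TR-107. WDR3, of the UtpB subcomplex, had 179, 176 and 180 CPM in DMSO and 122, 124 and 121 CPM in TR-107. Neither gene's groups came near each other, and the log2 fold changes were -0.70 and -0.54.

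Of the 55 genes, 5 encode parts of the t-UTP subcomplex, which binds the precursor first and is also needed for polymerase I transcription. These 5 did not all pass. Another component, NOL11, is given with the further genes below. WDR43 (-0.40), WDR75 (-0.39) and UTP15 (-0.45) fell by similar amounts on the log2 scale, and HEATR1 by less (-0.14 ± 0.04, SE; edgeR adjusted p = 0.00862). UTP4 had 94.1, 52.7 and 59.9 CPM in DMSO and 44.0, 49.8 and 47.7 CPM in TR-107. DMSO replicate 1 stood far above its partners, although no TR-107 library reached any DMSO library. The log2 fold change was -0.54 (SE 0.26; adjusted p = 0.158 by edgeR), and without DMSO replicate 1 it was -0.27 with an adjusted p of 0.00806.

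Other early factors fell by 0.17 to 0.35 on the log2 scale. They were UTP18 (-0.35), a partner of WDR3, RRP9 (-0.35), a protein of the U3 snoRNP, the helicase DDX10 (-0.33), NOP14 (-0.22), UTP14A (-0.21), which activates the helicase DHX37, and NAT10 (-0.17), the acetyltransferase of small-subunit rRNA. UTP14A lost its call without DMSO replicate 1 (-0.18, edgeR adjusted p = 0.0672) or 3 (-0.17, 0.0745). DDX52, another helicase, had 24.0, 12.1 and 14.1 CPM in DMSO and 9.76, 15.2 and 9.46 CPM in TR-107. Its groups overlapped, and it did not pass (log2 fold change -0.54, SE 0.35; adjusted p = 0.251 by edgeR).

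Of the 5 factors of the late, partly cytoplasmic pre-40S particle, 4 fell. LTV1, which leaves the particle late, had 86.3, 90.4 and 90.3 CPM in DMSO and 56.3, 61.4 and 60.3 CPM in TR-107, 1.5-fold lower. BYSL (-0.52), PNO1 (-0.43) and TSR1 (-0.39), which bind the pre-40S particle, fell by less on the log2 scale. NOB1, the nuclease that makes the final cut of small-subunit rRNA, had 159, 156 and 147 CPM in DMSO and 141, 149 and 162 CPM in TR-107. The groups of NOB1 overlapped (log2 fold change -0.03, SE 0.05; adjusted p = 0.620 by edgeR), and the estimate was 0.01 without TR-107 replicate 1.

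RRP12 rose. It encodes a HEAT-repeat protein that helps carry pre-ribosomal particles out of the nucleus (gene ID 23223, GRCh38 chromosome 10, 97356357 to 97401370). It had 117, 119 and 114 CPM in DMSO and 152, 153 and 157 CPM in TR-107. Each TR-107 library lay above each DMSO library, a log2 fold change of 0.40 (SE 0.05; adjusted p = 1.18e-09 by edgeR), or 1.32-fold.

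In 60S assembly the falls were led by RRP1B, MRTO4, NOP16 and RRP1. RRP1B (gene ID 23076, GRCh38 chromosome 21, 43659560 to 43696079) had 247, 259 and 263 CPM in DMSO and 146, 145 and 142 CPM in TR-107. Its log2 fold change was -0.83 (SE 0.04; adjusted p = 6.41e-20 by edgeR), or 1.78-fold lower. RRP1, its paralogue on the same chromosome (43789577 to 43805293), had 89.6, 85.7 and 81.6 CPM in DMSO and 51.8, 48.0 and 51.0 CPM in TR-107. Both proteins act in early processing of large-subunit rRNA. RRP1B stood at 2.75 to 3.22 times RRP1 in DMSO and 2.78 to 3.02 times in TR-107, a difference of -0.06 on the log2 scale that was within the spread of the libraries (exact two-sided permutation p = 0.7; 0.7 adjusted over the 6 pairs).

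MRTO4, which holds the place of the ribosomal stalk until late in assembly, had 203, 201 and 194 CPM in DMSO and 105, 120 and 112 CPM in TR-107. This was 1.77-fold lower (log2 fold change -0.82, SE 0.05; adjusted p = 3.11e-18 by edgeR). NOP16, an early pre-60S factor, had 72.4, 79.4 and 72.2 CPM in DMSO and 41.1, 44.9 and 45.1 CPM in TR-107, 1.71-fold lower. Their TR-107 libraries stood far below the lowest DMSO library. PPAN, another early factor, had few reads, 6.29 to 7.17 CPM in DMSO and 2.51 to 5.70 CPM in TR-107. It fell (-0.71 ± 0.23, SE; edgeR adjusted p = 0.00799) but lost its call without TR-107 replicate 1 (-0.47, adjusted p = 0.0799). Its span also overlaps PPAN-P2RY11, a readthrough gene with 0 to 4 counts per library, and P2RY11, with 37 to 90. The count of PPAN is therefore uncertain.

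BOP1, PES1 and WDR12 form PeBoW, a complex needed to mature large-subunit rRNA. BOP1 had 327, 343 and 319 CPM in DMSO and 210, 199 and 219 CPM in TR-107. PES1 had 267, 289 and 273 CPM in DMSO and 187, 196 and 207 CPM in TR-107. Their log2 fold changes were -0.66 ± 0.04 and -0.49 ± 0.04 (SE). WDR12 had 92.8, 81.2 and 83.8 CPM in DMSO and 81.4, 79.6 and 72.9 CPM in TR-107. Its groups overlapped by a narrow margin, and its log2 fold change, -0.14 with an SE of 0.06 (adjusted p = 0.0464 by edgeR), lay just past the threshold. The call of WDR12 ended without DMSO replicate 1 (-0.09), TR-107 replicate 2 (-0.16) or replicate 3 of TR-107 (-0.09), as it did under DESeq2 (-0.15), with adjusted p-values of 0.0575 to 0.264. The ratio of BOP1 to WDR12 was 3.52, 4.22 and 3.81 in DMSO and 2.58, 2.5 and 3.0 in TR-107, a change of -0.52 on the log2 scale. That of PES1 to WDR12 changed by -0.35, and for each ratio the groups did not overlap (exact two-sided permutation p = 0.1; 0.12 adjusted over the 6 pairs).

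All 3 nucleolar GTPases fell. GNL3, nucleostemin, which is abundant in stem and tumour cells, had 268, 268 and 268 CPM in DMSO and 194, 195 and 192 CPM in TR-107. GNL3L, its paralogue, had 204, 199 and 200 CPM in DMSO and 189, 179 and 192 CPM in TR-107. GNL3 fell by 0.47 on the log2 scale, and GNL3L by 0.10 ± 0.04 (SE; edgeR adjusted p = 0.0435). Leaving out DMSO replicate 1, TR-107 replicate 1 or replicate 2 of TR-107 ended the call of GNL3L (-0.10, -0.11 and -0.07; adjusted p = 0.0985, 0.0539 and 0.238). The ratio of GNL3 to GNL3L went from 1.31, 1.35 and 1.34 in DMSO to 1.03, 1.09 and 0.996 in TR-107, a change of -0.36 on the log2 scale (exact two-sided permutation p = 0.1; 0.12 adjusted over the 6 pairs). GNL2, which acts in export of the 60S particle, had a log2 fold change of -0.32.

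The other 60S members fell by 0.23 to 0.66 on the log2 scale. They were RRS1 (-0.66), which helps to load the 5S particle, NIP7 (-0.59), NOC2L (-0.56) and its partner NOC3L (-0.23), EBNA1BP2 (-0.48), NOP2 (-0.31), a methyltransferase of large-subunit rRNA, and the helicase DDX18 (-0.31). NOC2L and NOC3L form a complex, and the difference between their changes was not tested. NOC2L, whose span overlaps SAMD11, had 423, 448 and 426 CPM in DMSO and 283, 285 and 313 CPM in TR-107. NOC3L had 102, 93.3 and 101 CPM in DMSO and 84.3, 84.9 and 84.0 CPM in TR-107. Neither gene's groups overlapped.

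Per kilobase of exon, as the union of GENCODE 29 exons, NPM1 (795) and NCL (515) stood highest among the 55 in DMSO, in CPM per kb. FBL (219), NOLC1 (194) and NHP2 (183) followed. RRN3 (0.369), DDX52 (2.63) and PPAN (3.81) were lowest, and POLR1A, at 13.7 CPM per kb, ranked 49. In TR-107 the first 2 were at 658 and 312 CPM per kb.

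Some of these genes also host snoRNA genes. A snoRNA gene overlapped the span of 9 members (16.4%), namely NOP56, NOP58, DKC1, NCL, WDR43, TSR1, UTP20 (a predicted one), PPAN and GNL3. Of 12459 tested protein-coding genes, 3.40% had a snoRNA gene wholly inside the span. That is a stricter rule than overlap, so the shares are not strictly alike. All 9 of these members fell (median log2 fold change -0.47). Of the 46 others 41 fell (89.1%, against 28.6% of all tested genes), with a median of -0.35. The difference was not tested. The snoRNAs themselves, which have no poly(A) tail, were not analysed here. By promoter letters, the 22 members with an E-box window had a median of -0.35 and the 25 with windows but no E-box a median of -0.39.

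Further genes of the same pathway, listed by role but with earlier results of these data known, went mostly the same way. Of 117 tested genes in 5 lists, 81 fell (69.2%, against 28.6% of all tested genes) and 12 rose (10.3%, against 29.2%), and the median log2 fold change was -0.33. For 40S assembly 30 of 37 fell (81.1%) and 2 rose (5.41%). DHX37, the helicase that UTP14A activates, fell from 148 ± 5.42 to 68.1 ± 1.60 CPM (SD, n = 3). Its log2 value changed by -1.12, a larger fall than that of any member. RRP7A (-0.72) and the GTPase BMS1 (-0.48) also fell on the log2 scale. RIOK3, a kinase linked to pre-40S particles, rose from 40.9 ± 2.71 to 115 ± 2.45 CPM (SD, n = 3). The other that rose, PDCD11 (0.10), lost its call with library size alone (0.04) and without DMSO replicate 1 (0.08) or TR-107 replicate 3 (0.08).

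For 60S assembly 27 of 45 further genes fell (60%) and 6 rose (13.3%), beside 28.6% and 29.2% of all tested genes. URB2 (-0.96), the methyltransferase FTSJ3 (-0.71) and the helicase DDX56 (-0.49) fell on the log2 scale. NOP53 rose from 166 ± 3.60 to 316 ± 10.1 CPM (SD, n = 3), RSL24D1 from 143 ± 11.7 to 237 ± 13.0 CPM, and EFL1 from 24.1 ± 0.559 to 38.9 ± 2.03 CPM (SD, n = 3). NOP53 and RSL24D1 are pre-60S factors, and EFL1 is the GTPase that releases eIF6 from the 60S subunit in the cytoplasm. Of the further polymerase I genes, 7 of 11 fell (63.6%) and 2 rose (18.2%). NOL11, a t-UTP component (-0.70), and the subunits POLR1F (-0.60) and POLR1E (-0.52) fell, while POLR1D (0.24) and TAF1D (0.38), of the promoter factor SL1, rose. Of 9 snoRNP assembly genes 8 fell (88.9%), including SHQ1 (-0.83), NAF1 (-0.62) and RUVBL1 (-0.56), and ZNHIT6 (0.36) rose.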

How the data were processed

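Per the submitters' processing notes, the authors used FastQC, Trimmomatic, HISAT2, featureCounts and the build hg38. Tool versions, the gene annotation used and how strand and multiply mapped reads were handled are not given in these sources, so reads of overlapping genes or close copies may be split or lost; another gene overlaps the span of 28 of the 55 members. The deposited values were raw counts for 28395 gene IDs, of which 27745 matched a symbol in RefSeq's table of GRCh38.p14.

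From these counts, edgeR 4.0.16 (R 4.3.3) with TMM scaling, filterByExpr and a robust quasi-likelihood fit tested 13767 genes, group alone in the design, with Benjamini-Hochberg adjustment at 0.05. CPM used TMM-scaled library sizes. The common biological coefficient of variation was 0.0739. The fitting script was tested on simulated data. Ratios of members used SciPy 1.17.1. Replicate libraries were not duplicates (chi-square 3.92 to 6.05 per degree of freedom).

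By rule, values per library were given for transcription and scaffold members, the 4 lowest and 2 highest log2 fold changes of each other step, members called higher and partner genes, and up to 3 further called genes per list and direction with the smallest p were named, apart from an item not reported here. Members, steps, lists and motifs were chosen with earlier results of these data known. Alternatives were other scalings, no filter, the replicate block, DESeq2 1.42.0, limma-voom (limma 3.58.1), a fold threshold and leaving out each library.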

Additional observations from a re-analysis of the deposited data

How the results depend on the processing

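Of 715 values of the 55 members under 13 alternatives, 701 kept direction and call, and 47 members kept both throughout. The exceptions were the values given above for WDR12, GNL3L, PPAN, UTP14A and UTP4, DDX52, which was called lower with no filter on low counts (log2 fold change -0.55, adjusted p = 0.00577), and 2 uncalled genes that changed sign, NOB1 without TR-107 replicate 1 (0.0149, with left-out libraries giving -0.0839 to 0.0149) and RRN3 without TR-107 replicate 2 (-0.341, range -0.341 to 1.7372). Members called lower numbered 48 to 51 and RRP12 was called higher under each scaling, filter, tool and left-out library. With the replicate number as a block the count was 50, the same 50 genes, and 8 snoRNP, 17 40S and 18 60S genes. The numbers did not pair the libraries (correlations of same-numbered deviations -0.0311, -0.0185 and 0.0486). Library size alone shifted log2 fold changes by a median of -0.0643. Its counts were 4537 (all genes lower), 3484 (all genes higher) and 50 (members lower).

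Requiring a log2 fold change of at least 0.58 left 14 members lower and 0 higher: 1 of transcription, 1 snoRNP, 1 scaffold, 3 of 40S (and 0 higher) and 8 of 60S. It left 17 further genes lower and 4 higher, and 1459 and 1908 of all genes. The cause of each change was not tested, other than the stricter rule itself. RRN3 (22 to 154 counts per library) and PPAN (43 to 152) had the fewest reads of the members, and the part of depth in their values was not tested.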

Other observations

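Neighbouring machineries, the polymerase III apparatus and the RNA exosome, were looked at beside the nucleolar genes. RNA polymerase III makes 5S rRNA and tRNAs. The 12 tested genes were those of its specific subunits, BRF1 of TFIIIB and the repressor MAF1. Of these, 5 fell (41.7%) and 4 rose (33.3%), against 28.6% and 29.2% of all tested genes. The median log2 fold change was 0.02. POLR3G fell from 107 ± 7.49 to 75.0 ± 9.49 CPM, and BRF1 fell from 55.1 ± 2.12 to 38.7 ± 2.44 CPM (SD, n = 3). MAF1 rose from 135 ± 2.13 to 167 ± 7.21 CPM, POLR3D from 52.6 ± 2.07 to 69.7 ± 3.38 CPM and POLR3C from 42.5 ± 0.396 to 52.7 ± 1.15 CPM (SD, n = 3). Of the 15 exosome and exonuclease genes that trim rRNA, 9 fell (60%, against 28.6% of all tested genes) and 1 rose (6.67%, against 29.2%). These 15 are already counted among the 117 further genes above. EXOSC4 (-0.85), EXOSC2 (-0.57) and EXOSC3 (-0.53) fell and EXOSC8 (0.39) rose on the log2 scale.

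Some pathway genes had almost no reads in these libraries, chosen for mention after their values were seen. AATF had at most 2 counts, WDR46 at most 1, POLR1H at most 2 and BDP1 at most 1 in any library, and DDX24 had 27 to 73. ZNHIT3, of the snoRNP assembly list, had a count of 0 in every library. Why was not tested.

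Other promoter letters were counted in the 56 windows of the members, on both strands, none of the motifs containing another. The ETS-type heptamer CCGGAAG was in 39.3% of windows, against 16.5% of windows of tested genes. The NRF1 core CGCATGCG was in 7.14%, against 3.31%. The ATF4-type core TGATGNAA was in 0 of 56, against 1.97%.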
